A study of Mus musculus with 16 samples.

Results

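C-type lectin receptors are membrane proteins with which myeloid cells recognize sugars and glycolipids of microbes and of damaged cells. The 10 that were followed, by their gene symbols, are Clec4b2, Clec4b1, Clec4a1, Clec4a2, Clec4a3, Clec4d, Clec4e, Clec4n, Clec7a and Cd209b. They are 10 of the 55423 rows of the count table, and all 10 were among the 21085 genes with enough counts to be tested. The study asked how macrophages of the lymph node sinuses differ from each other and how a tumor upstream changes them. RNA was sequenced from subcapsular sinus macrophages (SSMs), which meet the incoming lymph, and from medullary sinus macrophages (MSMs), which line the way out. Both were sorted as CD45+ CD3- B220- Ly6G- CD11b+ CD169+ cells, SSMs as the CD11c- cells of low side scatter and MSMs as the CD11c+ cells of high side scatter.

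All mice were C57B/6 males with a flank tumor of MOC2, a squamous cell carcinoma line, 2 weeks after 500000 cells had been injected into the skin. No tumor-free mouse was among the samples, so the nodes of comparison come from tumor-bearing mice too. Each library holds cells pooled from 2 mice, from either their 2 tumor-draining nodes (tdLN) or 6 non-draining nodes (ndLN), which were inguinal, axillary and brachial nodes of the other flank. There were 4 groups, 1 for each subset and kind of node, each with 2 libraries, called pool 1 and pool 2 here after the numbers in their labels. The label of 1 SSM library from tdLN holds no number, and it was taken as pool 1 because the other is numbered 2, so its pairing with the other libraries of pool 1 is inferred. Library totals lay between 42972328 and 48130352 counts. The unit of level used here is CPM, the count scaled to library size, and levels below are also normalized between libraries. A count of 3 in a library was taken as the floor of detection, which by totals alone, before normalization, equals 0.0623 to 0.0698 CPM. This floor covers counting error only. Because the RNA is of bulk cell sorts, fewer cells of a type and less RNA per cell cannot be told apart.

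The receptors fall into groups by how they signal. Clec4e (Mincle), Clec4d (MCL), Clec4n (Dectin-2) and Clec4b1 (DCAR) have short tails and pair with the Fc receptor γ chain, encoded by Fcer1g, which recruits the kinase Syk, and Syk acts through CARD9, BCL10 and MALT1 on NF-κB to raise cytokines. Clec7a (Dectin-1), the receptor for fungal β-glucan, recruits Syk through its own tail. Clec4a2 (DCIR) instead has an inhibitory motif in its tail, to which the phosphatases Ptpn6 and Ptpn11 bind, while its relatives Clec4a1 and Clec4a3 lack that motif. Cd209b (SIGN-R1) is a receptor for dextran and bacterial capsules that is known from marginal zone and medullary macrophages.

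Of the 10 genes, 8 lie on chromosome 6 of mm10 between 122921848 and 123289870. In the order of the chromosome, Clec4a1, Clec4a3, Clec4b1, Clec4a2, Clec4b2, Clec4n and Clec4d are on the plus strand and Clec4e is on the minus strand. Clec7a lies farther along, at chr6:129461591-129472779 on the minus strand, and the annotation types it as a polymorphic pseudogene. Cd209b is on chromosome 8, at chr8:3917655-3926844, on the minus strand. No exon of the 10 overlapped an exon of another annotated gene. Among the proteins of those 8 genes the 2 most alike were Clec4b1 and Clec4b2, with 71% identity over 207 aligned residues, followed by Clec4b1 and Clec4a2 with 66.5%. Of the transcript windows of 50 bases, 8.68% of Clec4b1 and 6.83% of Clec4a2 also occur in another gene, so that part of their reads could be split between relatives, and Clec4n shared 0.686%. The other 7, Clec4b2 among them, shared none.

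A script that read the translated coding sequences found the inhibitory type of tyrosine motif in the tail of Clec4a2 only, at tyrosine 7. The glutamate-proline-asparagine motif, which is tied to binding of mannose-type sugars in this family, occurred in Clec4b2, Clec4e, Clec4n and Cd209b. It was found in neither Clec4b1 nor the 3 Clec4a proteins, Clec4d and Clec7a. In this respect the near relatives Clec4b1 and Clec4b2 differ.

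The 2 stretches below are the 120 bases just before the annotated start of Clec4b1 and Clec4b2, the closest pair of proteins, whose levels lay in opposite directions between nodes, in SSMs for the former and MSMs for the latter. Those of Clec4e and Clec7a are shown with them as the called receptor with the largest difference between SSMs and MSMs in tdLN and the receptor with the highest level. Sequences are from RefSeq (GRCm38.p6), 5′ to 3′ on the strand of the gene, and capitals mark GAGGAA or its complement TTCCTC, the core letters of a site for PU.1, a transcription factor of myeloid cells.
Clec4b1, chr6:123049842-123049961, plus strand: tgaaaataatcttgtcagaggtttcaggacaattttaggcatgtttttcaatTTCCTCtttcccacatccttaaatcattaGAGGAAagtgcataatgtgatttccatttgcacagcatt
Clec4b2, chr6:123172773-123172892, plus strand: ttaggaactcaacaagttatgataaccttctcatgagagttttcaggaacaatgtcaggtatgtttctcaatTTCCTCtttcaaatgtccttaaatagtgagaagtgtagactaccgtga
Clec4e, chr6:123289872-123289991, minus strand: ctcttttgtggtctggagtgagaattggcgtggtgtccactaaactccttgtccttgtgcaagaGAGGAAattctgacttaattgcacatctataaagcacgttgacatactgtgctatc
Clec7a, chr6:129472780-129472899, minus strand: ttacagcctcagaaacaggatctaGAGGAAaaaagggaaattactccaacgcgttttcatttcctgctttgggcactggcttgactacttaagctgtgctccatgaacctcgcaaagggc

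The stretches of Clec4b1 and Clec4b2 aligned over 71 bases at 84.5% identity, and the letters TTCCTC lie within the shared block of both. Clec4b1 holds the letters once more farther on, where Clec4b2 does not. Counted on both strands in windows of 300 bases around the start, GAGGAA was found for 6 of the 9 members with a promoter entry and in 28.3% of the 32851 windows of all genes. TTNNGNAA, letters of a C/EBP site, was found for 5 of the 9 and in 40.7% of windows. TGANTCA of AP-1 was found for 1 member, Clec4a2, and in 7.81% of windows, and TGGGAA of RBPJ for 2 members and in 25.6%. These are matches of letters and not sites shown to be bound.

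Per unit of transcript length Clec7a was the most abundant of the receptors in every group. In TPM, a count scaled by transcript length and library size, the ndLN mean of Clec7a was 721 ± 90.8 for SSMs and 904 ± 102 for MSMs (SD, n = 2), and the tdLN mean was 1631 ± 251 and 594 ± 168. In SSMs the next were Clec4a3 and Clec4n, with 410 ± 163 and 173 ± 37.5 TPM in ndLN and 1356 ± 88.9 and 849 ± 349 TPM in tdLN. Clec4e and Clec4a1 followed, and Clec4b2 was last. In SSMs from ndLN the neighbors Clec4n, Clec4e and Clec4a1 did not differ beyond their SDs, and neither did Clec4a2, Clec4b1 and Clec4d.

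In MSMs from ndLN Clec7a was followed at a distance by Clec4n, with 134 ± 58.9 TPM, and then by Clec4a3, Clec4b1 and Cd209b, which lay between 56.5 and 66.1 TPM and within each other's SD. Clec4e, so high in SSMs, was near the end of that order with 13.1 ± 5.14 TPM. The summed TPM of the 10 receptors was 2027 and 1457 in the SSM libraries of ndLN and 5513 and 4374 in those of tdLN. In MSMs it was 1166 and 1454 in ndLN and 1668 and 1049 in tdLN. The share of Clec7a in this sum was 67.1% and 71.3% in MSMs from ndLN and 32.8% to 45.3% in the other 6 libraries.

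**Figure D1:**
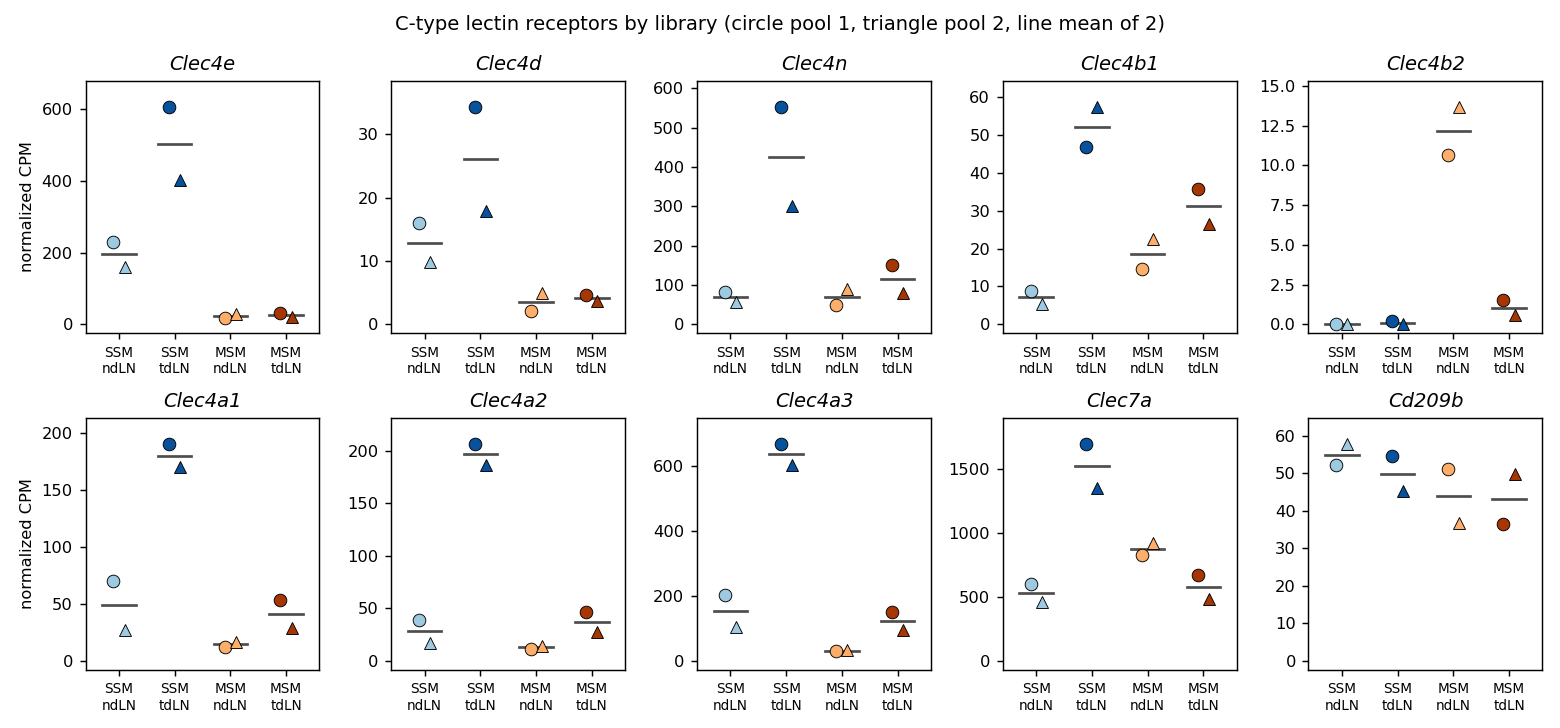
Normalized CPM (y axes, linear, a scale per gene) of the 10 receptors in the 8 libraries, by group (x axes); circles are pool 1, triangles pool 2, and lines the mean of 2. Most receptors are highest in SSMs from tdLN, Clec4b2 is seen almost only in MSMs, and Cd209b lies between 36.6 and 57.8 in every library.

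Markers of cell types were read beside the labels of the subsets. The names SSM and MSM are kept as the study gives them, and whether the sorted cells fit these names was not tested. T cell markers, which were found as well, are given further below with the comparison of the subsets. Siglec1, the gene of CD169, on which all cells were sorted, was at 8.47 to 15.1 CPM in SSMs from ndLN and 59.2 to 70.0 in SSMs from tdLN, and at 0.795 to 5.96 in MSMs. Vsig4 had 0 counts in all 8 libraries, Cd163 was at most 2.00 CPM and Lyve1 at most 2.44 CPM. Other sinus macrophage markers were high, with Csf1r at 194 to 1887 CPM and Cd68 at 134 to 591 CPM. The 13 of them summed to between 939 and 3874 CPM in SSMs, and to between 745 and 1254 in MSMs. MSMs carried dendritic cell markers at high levels, with Clec9a at 132 to 203 CPM and Xcr1 at 630 to 752 CPM, against 0.807 to 2.08 and 14.2 to 33.6 CPM in SSMs. The 10 dendritic cell markers summed to between 6013 and 6951 CPM in MSMs, and to between 1534 and 3397 in SSMs. SSMs carried more of the 8 monocyte markers, with sums of 1528 to 5011 CPM against 458 to 560 in MSMs. They also carried mast cell and basophil markers, with sums of 1650 and 2801 CPM in ndLN and 367 and 784 in tdLN. The 11 neutrophil markers summed to 121 to 820 CPM in the SSM libraries and 10.95 to 31.5 CPM in the MSM libraries. For SSMs against MSMs, 10 of them in ndLN and 11 in tdLN had a log2 fold change above 0. Ngp was at 12.9 to 185 CPM in SSMs and at most 0.145 CPM in MSMs, and S100a8 at 4.34 to 103 and at most 0.897 CPM. Ly6g, their defining surface marker, against which the cells were sorted, was at 0 in 7 of the 8 libraries and 0.628 CPM in the other.

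In ndLN, SSMs and MSMs differed in which of these receptors they expressed. Clec4e and Clec4a3 were higher in SSMs, and Clec4b2 was found in MSMs and not in SSMs. These 3 of the 10 passed edgeR's quasi-likelihood test at an adjusted p under 0.01, 2 higher and 1 lower in SSMs, where 7.33% of all genes were higher and 6.65% lower. At an unadjusted p under 0.05, 5 were higher and 3 lower. The share of all genes at this unadjusted threshold is not given, here or below, so such counts have no background beside them. DESeq2 also called 5 higher and 3 lower, with 4506 genes called over all in either direction. Scaled by library totals alone, 2077 genes were higher and 918 lower, against 1545 and 1403. The median log2 fold change of the 10 was 0.66, beside 0.09 over all genes. By libraries that did not overlap, 6 members were higher and 3 lower in SSMs, beside 30.7% and 26.5% of all genes.

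Clec4e, whose product senses mycobacterial cord factor and a protein let out by dying cells, was at 231 and 159.5 CPM in SSMs and 17.6 and 29.6 CPM in MSMs of ndLN, in the order pool 1 and pool 2. The 2 SSM libraries lay well above both MSM libraries. Its log2 fold change was 2.99 ± 0.32 (SE, edgeR adjusted p = 0.000567), and it passed at the same threshold in all 18 other fits of this comparison. Clec4a3 was at 203 and 105 CPM in SSMs and 29.9 and 34.3 CPM in MSMs, a log2 fold change of 2.18 ± 0.27 (edgeR adjusted p = 0.00105). The SSM libraries of this gene differ among themselves by more than the MSM libraries do, and without the MSM library of pool 1 from ndLN it no longer passed, while Clec7a then passed as lower in SSMs, so that 1 was higher and 2 were lower. Without the MSM library of pool 2 from ndLN 3 were higher, Clec4d being added.

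Clec4b2 had 0 counts in both SSM libraries of ndLN and 416 and 613 counts in the MSM libraries, or 10.7 and 13.7 CPM. Against a floor of 3 counts per library, or 0.0579 normalized CPM in these SSMs, it was at least 210-fold higher in MSMs. The edgeR adjusted p was 0.000256, and 0.0116 with only the 4 libraries compared, which does not pass. The groups thus did not overlap, and both MSM libraries were far above the floor. Its level in MSMs was still modest, at 28.3 ± 5.99 TPM (SD, n = 2). That was below Clec7a, Clec4n, Clec4a3, Clec4b1 and Cd209b, near Clec4a1 (25.5 ± 5.97 TPM), and above Clec4e, Clec4a2 and Clec4d.

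Of the others, Clec4d, which pairs with Clec4e, was at 15.9 and 9.81 CPM in SSMs and 2.08 and 4.92 CPM in MSMs of ndLN (log2 fold change 1.79 ± 0.46, edgeR adjusted p = 0.0269). Clec4a1 was at 70.3 and 27.5 CPM in SSMs and 12.5 and 16.6 CPM in MSMs (1.62 ± 0.39, edgeR adjusted p = 0.0205). Clec4a2 was at 38.8 and 17.5 CPM in SSMs and 11.9 and 14.5 CPM in MSMs (1.00 ± 0.33, edgeR adjusted p = 0.0676). For these 3 the groups did not overlap, but the difference did not pass the test.

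Clec7a and Clec4b1 lay the other way. Clec7a was at 603 and 463 CPM in SSMs and 827 and 919 CPM in MSMs of ndLN, and Clec4b1 at 8.94 and 5.30 CPM in SSMs and 14.6 and 22.4 CPM in MSMs. Neither difference passed, with log2 fold changes of -0.74 ± 0.16 (edgeR adjusted p = 0.0144) and -1.38 ± 0.35 (edgeR adjusted p = 0.0253). Clec4n, which binds fungal α-mannan, was at 82.5 and 55.6 CPM in SSMs and 49.3 and 89.0 CPM in MSMs, and these values overlap (-0.10 ± 0.40, edgeR adjusted p = 0.903). Its sign turned to 0.18 when libraries were scaled by their totals alone. Cd209b was at 52.1 and 57.8 CPM in SSMs and 51.2 and 36.8 CPM in MSMs (0.32 ± 0.23, edgeR adjusted p = 0.365).

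In tdLN Clec4e, Clec4d, Clec4a1, Clec4a2, Clec4a3 and Clec7a, 6 of the 10, passed the test as higher in SSMs and 0 as lower, beside 5.55% of all genes higher and 3.82% lower. At an unadjusted p under 0.05 the counts were 8 and 1. DESeq2 gave 7 and 1, Clec4b2 being the lower one, with 3548 genes called over all. The median log2 fold change of the 10 was 2.04 beside 0.02 over all genes. The libraries of SSMs lay above those of MSMs without overlap for 8 members and below them for 1, beside 29.5% and 27.1% of all genes.

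Clec4e was at 606 and 403 CPM in SSMs and 32.1 and 21.4 CPM in MSMs of tdLN. With a log2 fold change of 4.23 ± 0.33 (edgeR adjusted p = 0.000220) it had the largest difference of the called members, and it passed at that threshold in all 18 other fits. Its partner Clec4d, at 34.3 and 17.9 CPM in SSMs and 4.61 and 3.61 CPM in MSMs, differed by 2.63 ± 0.43 (edgeR adjusted p = 0.00499). Both genes were higher in SSMs in each pool, and Clec4d was low in all 8 libraries.

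Clec4a1 reached 190.2 and 169 CPM in SSMs and 53.7 and 28.9 CPM in MSMs of tdLN (log2 fold change 2.19 ± 0.36, edgeR adjusted p = 0.00528). Clec4a2, the receptor with the inhibitory motif, reached 206 and 186 CPM in SSMs and 46.1 and 27.3 CPM in MSMs (2.46 ± 0.31, edgeR adjusted p = 0.00144). Clec4a3 reached 668 and 602 CPM in SSMs and 149 and 95.1 CPM in MSMs (2.41 ± 0.26, edgeR adjusted p = 0.000792). All 3 genes thus lay between 2 and 3 log2 units higher in SSMs, the receptor with the motif and those without it alike in direction.

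Clec7a, at 1693 and 1346 CPM in SSMs and 674 and 479.5 CPM in MSMs of tdLN, was higher in SSMs by 1.40 ± 0.16 on the log2 scale (edgeR adjusted p = 0.00111), where in ndLN its SSM libraries were the lower ones. Clec4n was at 552 and 300.0 CPM in SSMs and 151 and 78.5 CPM in MSMs (1.90 ± 0.39, edgeR adjusted p = 0.0150) and did not pass. Clec4b1 was at 46.8 and 57.4 CPM in SSMs and 35.8 and 26.5 CPM in MSMs (0.74 ± 0.30, edgeR adjusted p = 0.150). Its order of the subsets was the reverse of that in ndLN. Clec4b2 had 8 and 0 counts in SSMs and 62 and 27 in MSMs (edgeR adjusted p = 0.122), and Cd209b was at 54.5 and 45.2 CPM in SSMs and 36.6 and 49.8 CPM in MSMs (edgeR adjusted p = 0.656).

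Leaving out a library changed these counts. In tdLN, without either MSM library of tdLN or without the SSM library of pool 2 of tdLN 1 receptor passed, Clec4e, and without the SSM library of pool 1 of tdLN 2 passed, Clec4a3 and Clec4e. Monocyte markers moved in the same direction as the receptors. Of the 8, 6 were higher in SSMs of ndLN and 7 in SSMs of tdLN, with medians of 2.98 and 4.09 on the log2 scale, and of the 11 neutrophil markers 4 and 5 were higher. SSMs also passed as higher for 9 of 10 T cell markers in ndLN and for 8 in tdLN, and as lower for 1 in each node, with medians of 2.99 and 4.26. Their sums were 2172 and 2395 CPM in the SSM libraries of ndLN against 820 and 677 CPM in the MSM libraries, and 942 and 1082 against 491 and 533 CPM in tdLN. Cd8a, the marker lower in SSMs, made up most of the MSM sums, with 605 and 386.5 CPM in ndLN and 357 and 439 CPM in tdLN. Cd3e was at 151 and 143 CPM in SSMs and 12.3 and 16.3 CPM in MSMs of ndLN. In tdLN it was at 75.0 and 84.4 against 3.05 and 2.135 CPM. Of the 10 mast cell and basophil markers 8 were higher in SSMs of either node. Dendritic cell markers moved the opposite way, 7 and 8 of 10 being lower in SSMs. Their part in the differences between subsets was not tested.

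**Figure D2:**
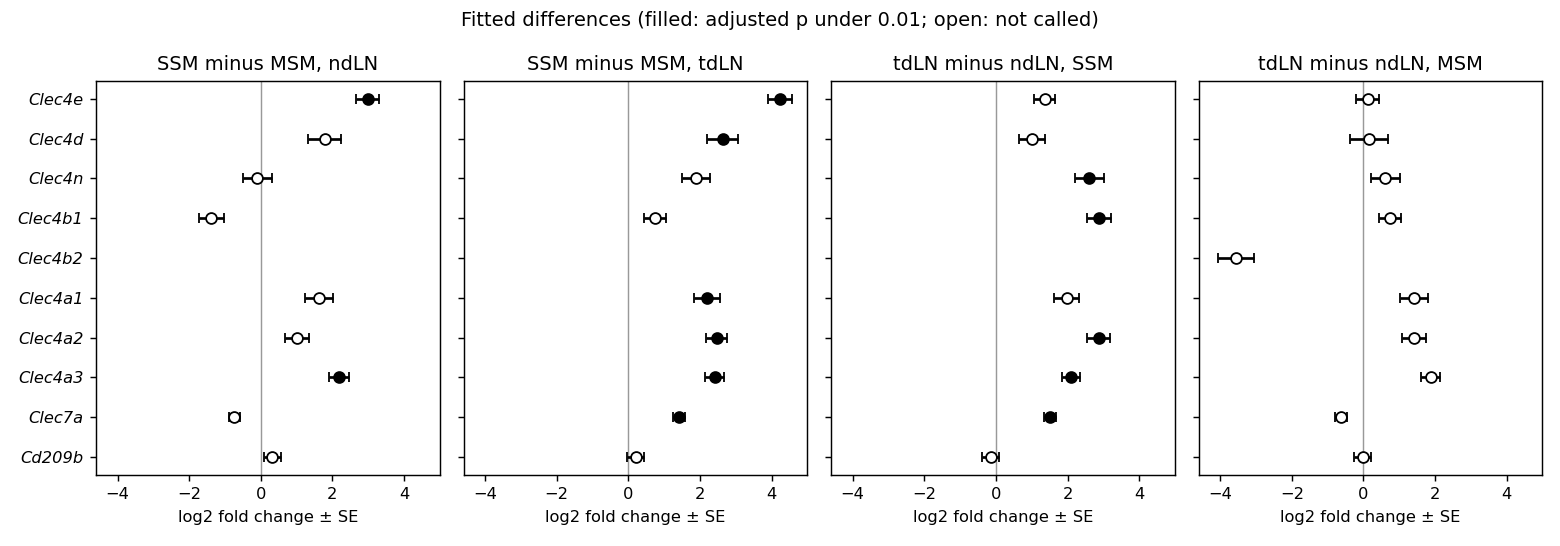
Log2 fold changes with SE (x axes) of the receptors (y axis) in the 4 comparisons, filled where the edgeR adjusted p was under 0.01. Clec4b2 is drawn only for MSMs, since its SSM libraries had 8 counts or fewer; 2 other members are filled in the first panel, 6 in the second, 5 in the third and 0 in the fourth.

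In SSMs Clec4a2, Clec4a3, Clec4b1, Clec4n and Clec7a, 5 of the 10, rose from ndLN to tdLN and 0 fell, beside 2.03% and 1.13% of all genes. At an unadjusted p under 0.05, 8 were higher and 0 lower. DESeq2 called 7 higher and 0 lower, with 2079 genes called over all. The median log2 fold change of the 10 was 2.04, beside -0.04 over all genes. Libraries did not overlap for 8 members, all higher in tdLN, and for 0 members lower, beside 25.6% and 26.3% of all genes. Scaled by library totals alone, the same comparison called 286 genes higher and 412 lower, against 427 and 239. This comparison shares its SSM libraries with those between subsets, so the results are not independent of each other.

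Clec4a2 and Clec4b1 had the largest rises. Clec4a2 went from 38.8 and 17.5 CPM in ndLN to 206 and 186 CPM in tdLN, a log2 fold change of 2.87 ± 0.31 (edgeR adjusted p = 0.00261). Clec4b1, a receptor for mycobacterial lipids, went from 8.94 and 5.30 CPM to 46.8 and 57.4 CPM, a log2 fold change of 2.87 ± 0.33 (edgeR adjusted p = 0.00330). In both genes the lower tdLN library was more than 4 times the higher ndLN library.

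Clec4n rose from 82.5 and 55.6 CPM to 552 and 300.0 CPM (log2 fold change 2.60 ± 0.40, edgeR adjusted p = 0.00941). This call lay near the threshold and held in 7 of 18 other fits, over which the adjusted p ran from 1.19e-09 to 0.117. With RLE size factors, library totals, no gene filter or the legacy fit Clec4n did not pass, which left 4 receptors. Clec4a3 rose from 203 and 105 CPM to 668 and 602 CPM (2.10 ± 0.26, edgeR adjusted p = 0.00392). Clec7a rose from 603 and 463 CPM to 1693 and 1346 CPM (1.51 ± 0.16, edgeR adjusted p = 0.00261). The receptors that rose thus hold activating ones and the inhibitory Clec4a2.

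Clec4a1, with 27.5 to 70.3 CPM in ndLN and 169 to 190.2 CPM in tdLN, differed by 1.97 ± 0.36 (edgeR adjusted p = 0.0158) and did not pass. Clec4e differed by 1.37 ± 0.29 (edgeR adjusted p = 0.0279) and Clec4d by 1.00 ± 0.36 (edgeR adjusted p = 0.146). Clec4e, which had the largest difference between subsets among the called members in tdLN, thus did not pass between nodes. Both its tdLN libraries (606 and 403 CPM) still lay above both of ndLN (231 and 159.5 CPM). The DESeq2 Wald test called Clec4e (adjusted p = 0.000519) and Clec4a1 (adjusted p = 5.5e-06). Cd209b did not move in one direction, with log2 differences of -0.14 ± 0.23 (edgeR adjusted p = 0.783), and Clec4b2 had 0 counts in 3 of the 4 SSM libraries and 8 in the other, too few for a fold.

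These calls rest on few libraries. Without the SSM library of pool 2 from ndLN, and without either SSM library from tdLN, 0 of the receptors passed in edgeR, and over all genes 18, 8 and 2 did. Without the SSM library of pool 1 from ndLN 1 passed, Clec4a2. Without the MSM library of pool 1 from tdLN 1 passed, Clec7a, and without that of pool 2, Clec4a2 and Clec7a did. In each such fit a lone library stands for its group and is assumed to vary like the others. In every alternative and without any 1 library the 5 receptors kept a log2 fold change of 1.30 or more.

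Markers of sinus macrophages rose along with the receptors. Of 12 tested, 7 rose and 0 fell in SSMs from tdLN, with a median log2 fold change of 2.47. Siglec1 lay between 8.47 and 15.1 CPM in ndLN and between 59.2 and 70.0 CPM in tdLN, and Csf1r, the receptor for the macrophage growth factor, between 559 and 694 and between 1408 and 1887 CPM. The summed CPM of the 10 receptors was 104% and 95.9% of that of the 13 sinus macrophage markers in SSMs from ndLN. It was 105% and 104% in SSMs from tdLN. In MSMs it was 138% and 149% in ndLN and 94.5% and 91.1% in tdLN. In SSMs each sum is led by 1 gene, Clec7a for the receptors and Csf1r for the markers, so the ratio weighs these most. Single markers changed unequally in SSMs, with log2 fold changes of 3.63 for C1qb, 1.39 for Csf1r and -0.60 for Marco, the only 1 below 0. Single receptors in SSMs did not keep the ratio of the sums. Clec4b1 was at 0.711% and 0.564% of the marker sum in ndLN and 1.21% and 1.91% in tdLN, and Clec4a2 at 3.085% and 1.86% in ndLN and 5.33% and 6.22% in tdLN. Clec4e was at 18.4% and 17.0% in ndLN and 15.65% and 13.4% in tdLN. Against the 8 monocyte markers the receptor sum was 46.7% and 58.95% in ndLN and 80.85% and 64.5% in tdLN, and 1 of these 8, Ccr2, rose. Of the 10 T cell markers 0 rose and 3 fell in SSMs from tdLN, and all 10 were below 0. Among the 10 mast cell and basophil markers 1 rose and 1 fell, and 8 were below 0, with a median of -1.085. The 11 neutrophil markers held 1 that rose and 1 that fell, and 9 were above 0, with a median of 1.61. The part of any of these in the rise was not tested.

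**Figure D3:**
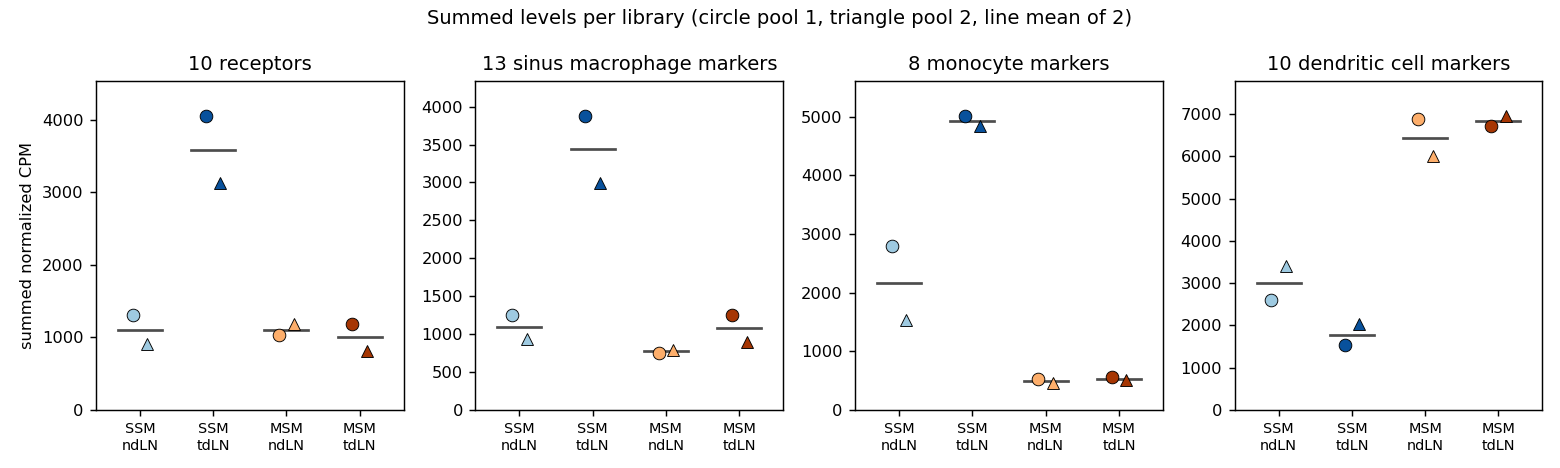
Summed normalized CPM (y axes, from 0) of the 10 receptors and of the sinus macrophage, monocyte and dendritic cell markers in each library, by group (x axes); circles are pool 1, triangles pool 2, and lines the mean of 2. Receptors and sinus macrophage markers share a high point in SSMs from tdLN, while dendritic cell markers are high in MSMs.

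In MSMs 0 of the 10 receptors passed edgeR's test between nodes, beside 0.0237% of all genes, which is 5 genes. At an unadjusted p under 0.05 there were 6, 4 higher and 2 lower in tdLN, a count without a share of all genes beside it. DESeq2 called 3 higher and 1 lower, with 600 genes called over all. The same 4 and 2 had libraries without overlap, beside 20.4% and 18.1% of all genes. The median log2 fold change of the 10 was 0.38, beside 0.01 over all genes.

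Clec4b2 was the member with the largest difference, from 416 and 613 counts in MSMs from ndLN to 62 and 27 counts in MSMs from tdLN, or 10.7 and 13.7 against 1.50 and 0.594 CPM. Its log2 fold change was -3.56 ± 0.49 (edgeR adjusted p = 0.0307), and both pools went down. Clec4a3 went from 29.9 and 34.3 to 149 and 95.1 CPM (1.87 ± 0.27, edgeR adjusted p = 0.0406). Clec4a1, with 12.5 and 16.6 CPM in ndLN and 53.7 and 28.9 CPM in tdLN, differed by 1.41 ± 0.39 (edgeR adjusted p = 0.215), and Clec4a2 by 1.41 ± 0.33 (edgeR adjusted p = 0.162). In all 3 Clec4a genes both MSM libraries of tdLN were above both of ndLN, but the differences did not pass.

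Clec7a, at 827 and 919 CPM in MSMs from ndLN and 674 and 479.5 CPM in MSMs from tdLN, was the other member that was lower in tdLN (-0.63 ± 0.16, edgeR adjusted p = 0.191). Clec4b1 was at 14.6 and 22.4 CPM in ndLN and 35.8 and 26.5 CPM in tdLN (0.74 ± 0.31, edgeR adjusted p = 0.411). For Clec4n, Clec4d, Clec4e and Cd209b the libraries overlapped. Of the 12 sinus macrophage markers tested and the 10 dendritic cell markers 0 passed in MSMs, with medians of 0.81 and -0.07.

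Whether the nodes differ in another way in SSMs than in MSMs was tested as an interaction, the log2 fold change between nodes in SSMs less that in MSMs. It was called for 0 of the 10 receptors, beside 0.0379% of all genes, which is 8 genes. At an unadjusted p under 0.05 there were 5, and DESeq2 called 4, all larger in SSMs, with 760 genes called over all by DESeq2. Clec7a had the smallest adjusted p of the 10, with 2.14 ± 0.23 (edgeR adjusted p = 0.0176). DESeq2 called it, and so did edgeR from either lane alone, but the lanes are of the same libraries. It did not pass without the pool term, with RLE size factors, library totals, no gene filter or filterByExpr, or in the legacy fit. Clec4b1 had 2.12 ± 0.46 (edgeR adjusted p = 0.0943) and Clec4n 1.99 ± 0.56 (edgeR adjusted p = 0.175). The rise of the 5 receptors in SSMs is therefore not shown to differ from the change in MSMs at this threshold.

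**Figure D4:**
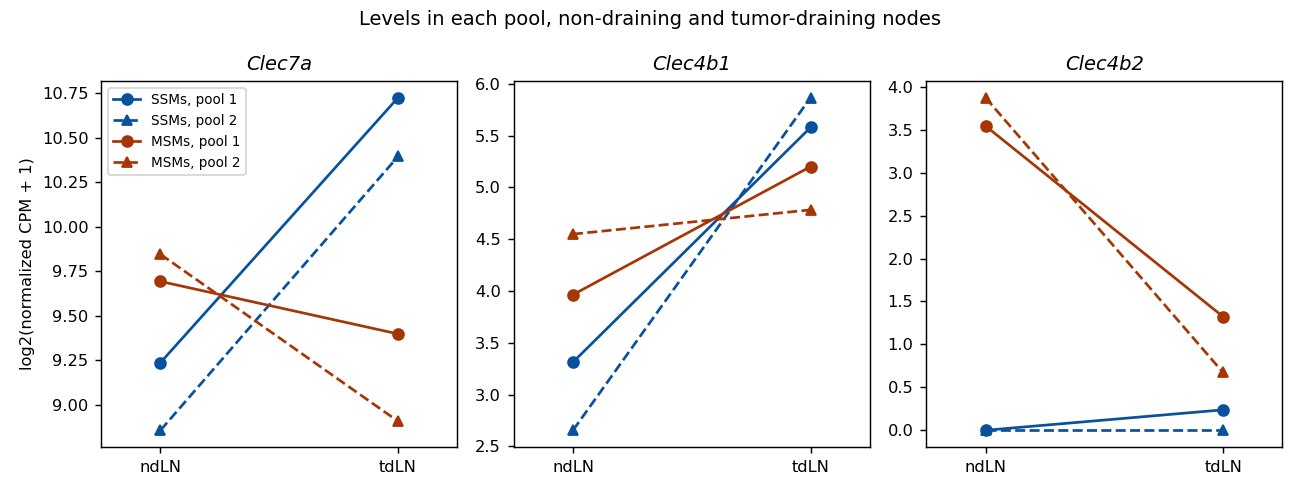
Log2(normalized CPM + 1) of Clec7a, Clec4b1 and Clec4b2 (y axes) in ndLN and tdLN (x axes), a line per pool; SSMs are blue, MSMs brown, pool 1 solid and pool 2 dashed. Clec7a goes up in both SSM pools and down in both MSM pools, Clec4b1 goes up in all 4 and its order of subsets turns, and Clec4b2 goes down in both MSM pools.

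Of the wider family, 30 of 32 other C-type lectin receptors were tested. In ndLN 4 were higher and 8 lower in SSMs, with a median log2 fold change of -1.19, and in tdLN 6 were higher and 4 lower, with a median of -0.21. Higher in SSMs of ndLN were Cd93 (4.72 ± 0.27, edgeR adjusted p = 3.47e-05), Klrb1b (2.92 ± 0.26) and the activation marker Cd69 (2.40 ± 0.17). Lower were Clec9a, the receptor of dendritic cells for dead cells (201 ± 1.82 CPM in MSMs and 1.545 ± 0.755 CPM in SSMs, SD, n = 2, edgeR adjusted p = 1.85e-05), Cd207, which encodes langerin (-5.69 ± 0.49), and Cd209d (-3.36 ± 0.40). In SSMs from tdLN 6 of the 30 rose and 0 fell. At the head of those that rose was Mrc1, the mannose receptor, from 4.62 ± 0.61 to 116 ± 12.2 CPM (SD, n = 2; log2 fold change 4.65 ± 0.51, edgeR adjusted p = 0.00265), followed by Mgl2, a receptor for galactose-type sugars (3.33 ± 0.36), and Clec5a (2.49 ± 0.23).

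Of 14 adaptors and kinases, 5 were higher in SSMs of tdLN than in MSMs and 5 rose in SSMs from ndLN to tdLN, and 0 were lower or fell. Fcer1g, on whose product the Clec4 receptors without signaling tails depend, was at 776 ± 295 CPM in SSMs and 190 ± 13.7 CPM in MSMs of ndLN (SD, n = 2; log2 fold change 1.99 ± 0.22, edgeR adjusted p = 0.000568). In tdLN it was at 1479 ± 41.3 and 339 ± 36.1 CPM (2.13 ± 0.22, edgeR adjusted p = 0.000600). Among those that rose in SSMs were the kinases Fgr (1.82 ± 0.18) and Btk (1.27 ± 0.18). In ndLN 2 of the 14 were higher in SSMs and 2 lower, the latter Btk and Vav3.

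Of 14 genes of the CARD9 complex and NF-κB, 4 were higher in SSMs of ndLN, led by Nfatc1 (1.32 ± 0.15), Rela (0.91 ± 0.16) and Nfkb1 (0.88 ± 0.18), 1 was higher in SSMs of tdLN, Nfatc1, and 0 changed in SSMs between nodes. At an unadjusted p under 0.05 there were 5 of the last kind, and DESeq2 called 3, all lower. Of 7 genes of inhibitory phosphatases and their adaptors, Ptpn6, which encodes SHP-1, the phosphatase that binds tails like that of Clec4a2, rose in SSMs from 254 ± 34.2 to 652 ± 71.7 CPM (SD, n = 2; 1.36 ± 0.12, edgeR adjusted p = 0.00192). It was the only one of the 7 called there. In ndLN 1 of the 7, Dok3, was higher in SSMs and 3 were lower.

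Of 12 genes that these receptors are known to induce, 3 rose in SSMs from ndLN to tdLN. Il1b went from 1546 ± 614 to 6292 ± 796 CPM (SD, n = 2; 2.06 ± 0.19, edgeR adjusted p = 0.00192), the transcription factor gene Egr2 rose by 2.04 ± 0.13 and the chemokine gene Cxcl2 by 1.16 ± 0.17. The median of the 12 was 1.49, beside -0.04 over all genes. Between subsets, 1 of the 12 was higher and 4 were lower in SSMs of ndLN, with a median of -1.03, and 1 and 1 in tdLN. The higher one was Cxcl2 in both. Il12b was lower in SSMs, with log2 fold changes of -4.13 ± 0.49 in ndLN (edgeR adjusted p = 0.000884) and -3.74 ± 0.48 in tdLN (edgeR adjusted p = 0.00174). Also lower in ndLN were Egr2 (-2.19 ± 0.13) and Il23a, a gene at 2.96 ± 1.36 CPM in MSMs. In tdLN Egr2 was at 276 ± 13.7 CPM in SSMs and 316 ± 11.8 CPM in MSMs. In MSMs 0 of the 77 genes of these 5 lists were called between nodes by edgeR, and 20 had an unadjusted p under 0.05. DESeq2 called 5 of them. As for the interaction, edgeR called 0 of the 77, 31 had an unadjusted p under 0.05 and DESeq2 called 18.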

How the data were processed

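The authors sorted the cells, made cDNA with the SMART-Seq v4 kit, ran each library on 2 lanes and deposited raw counts, with genes in rows and 16 samples (library by lane) in columns, neither normalized nor filtered. The submitters' processing notes name bcl2fastq 2.20.0.422, Trimmomatic 0.36, STAR 2.5.3a and GRCm38. The strand setting and counting mode are not given in the sources used here. Every column was mapped to a sample (0 unused), 2 added rows with 6 counts were left out, and 55240 gene IDs matched GENCODE M21 on mm10.

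Lanes of 1 library were within sampling noise of each other (chi-square per degree of freedom 0.955 to 1.02) and were summed, whereas libraries of a group differed by 29.3 to 53.1. That leaves 8 libraries, 2 per group. Library sizes were scaled with TMM (edgeR 4.0.16, R 4.3.3, factors 0.902 to 1.15), and CPM are normalized unless said otherwise. TPM were computed from counts and the summed exon length of each gene. Genes with at least 10 counts in total and detection in at least 2 samples were fitted with group and pool over all 8 libraries, and each contrast took its p-value from the quasi-likelihood F test of edgeR, adjusted after Benjamini and Hochberg over all 21085 genes. A gene passed, rose or fell at an adjusted p under 0.01. SE is the fold change divided by the root of F. The p-values rest on the spread between libraries of a group that is left after the shift shared by pool 1 or pool 2 is fitted. This spread is estimated over all 4 groups, with 2 libraries a group, and with information shared across genes.

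A pool term is in the model because the study's models hold one and its methods say that each pool gave all 4 kinds of sample. The methods count 4 pools, whereas the labels number the libraries 1 and 2 (1 without a number, taken as 1), and these 2 numbers are the term used here. Deviations of same-numbered libraries from their group means were correlated by -0.194 to 0.148 across genes.

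The 10 members and the marker and pathway lists were chosen with earlier results of these data known. Named in the text were all 10 members and, per pathway list, at most the 3 called genes of largest fold change in each direction, and all other genes, markers among them, were chosen after their values were seen. A result for 1 gene is not reported here. The procedure was tested on simulated data. Alternatives were DESeq2 1.42.0 and the settings given at the end. Figures were drawn with matplotlib 3.10.9 under Python 3.11.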

Additional observations from a re-analysis of the deposited data

Results flagged for a closer look

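Clec7a moved in opposite ways in both pools. Between nodes its log2(CPM + 1) was higher in tdLN by 1.49 and 1.54 in SSMs of pool 1 and pool 2 and differed by -0.295 and -0.938 in MSMs. Seen between subsets, the same 4 pairs gave SSMs minus MSMs of 1.33 and 1.49 in tdLN and -0.456 and -0.988 in ndLN. The difference of these differences, 2.14 ± 0.231 on the log2 scale (edgeR adjusted p = 0.0176), is 1 test for both views and did not pass at 0.01.

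Clec4b1 was higher in SSMs than in MSMs in both pools of tdLN, by 0.378 and 1.08, and lower in both pools of ndLN, by -0.651 and -1.89. The difference was 2.12 ± 0.459 (edgeR adjusted p = 0.0943) and did not pass. With 2 pools per group no single library was examined as an outlier.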

How the results depend on the processing

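With 2 libraries a group the calls depend on the settings more than the directions do. The directions of all called receptors held in each alternative run. Scaling by library totals alone moved the median gene by 0.268 for SSMs against MSMs in ndLN, -0.199 for SSMs between nodes and -0.233 for the interaction. The causes of the changes that follow were not tested.

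Receptors and genes are counted here for SSMs against MSMs in ndLN (2 higher, 1 lower, 2948 genes) and tdLN (6, 0, 1977), nodes in SSMs (5, 0, 666), nodes in MSMs (0, 0, 5) and the interaction (0, 0, 8). DESeq2 gave 5 higher, 3 lower and 4506 genes in ndLN, 1 lower and 3548 in tdLN, 2079 in SSMs, 3, 1 and 600 in MSMs, and 4 higher and 760 for the interaction. An adjusted p under 0.05 gave 4, 3 and 4937 in ndLN, 3534 in tdLN, 2034 in SSMs, 1, 1 and 97 in MSMs, and 1 higher and 216 for the interaction. Holm adjustment left 0 receptors everywhere, with 207, 108, 7, 0 and 1 genes. Only the 4 libraries compared gave 1 higher, 0 lower and 967 genes in ndLN, 0 receptors and 0 genes in SSMs, and 0 genes in MSMs. A mean normalized count over 100, taken per library and lane over all 8 libraries, removed Clec4b2 (75.4), leaving 0 lower in ndLN. The paper, with its own cut-off of a mean over 100 reads, names Clec4b2 among the genes highest in MSMs. That comparison was of non-draining nodes, and the paper does not say over which samples its mean was taken. The 2 means may thus differ in their samples.

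RLE size factors, totals, no gene filter and the legacy fit each left 4 receptors in SSMs, without Clec4n. Without the replicate block by pool, the counts of receptors were the same and genes in MSMs were 9. The other gene counts in MSMs were 2 by library totals, 14 by filterByExpr, 24 and 17 from lane 3 and lane 4, and 23 in the legacy fit. For the interaction they were 4 by RLE size factors and 4 by totals, and 25 and 29 from the lanes, each of which called 1 receptor, Clec7a.

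Leaving out each library in turn gave 1 to 3 higher, 1 to 2 lower and 1144 to 2239 genes in ndLN, 1 to 7 higher and 512 to 1979 genes in tdLN, 0 to 6 higher and 2 to 353 genes in SSMs, 0 to 3 genes in MSMs and 0 to 0 for the interaction. Without SSM library 1 of tdLN no value for Clec4b2 between nodes in SSMs could be given, as its counts are then 0.

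The fold changes that turned sign belonged to receptors that did not pass. By totals they were 0.18 for Clec4n in ndLN, 0.0096 for Cd209b in MSMs and -0.0082 for the interaction of Clec4a3, from lane 3 0.0079 for Cd209b in MSMs, and with only the libraries compared 0.10 for Clec4n in ndLN. Leaving out a library gave a range through 0 between subsets for Clec4n in ndLN (-0.79 to 0.86) and Cd209b in tdLN (-0.10 to 0.54), and between nodes for Cd209b in SSMs (-0.32 to 0.011) and for Clec4n (-0.11 to 1.54), Clec4d (-0.64 to 1.32), Clec4e (-0.46 to 0.86) and Cd209b (-0.35 to 0.29) in MSMs. For the interaction it did so for Clec4a1 (-0.026 to 1.17), Clec4a3 (-0.16 to 0.62), Clec4d (-0.33 to 1.64) and Cd209b (-0.44 to 0.20).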
